A study of Mus musculus with 11 samples.

Results

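The 10 immediate early genes Fos, Fosb, Fosl2, Junb, Egr1, Egr2, Egr4, Arc, Npas4 and Nr4a1 were followed across mouse neocortex and hippocampal CA1 with and without neuronal Dicer. They were picked by symbol, through their Ensembl identifiers, from the 39017 genes of the count table. All 10 were found, and all 10 passed the filter on low counts in both tissues. The study sequenced polyadenylated RNA from mice in which Camk2a-Cre deletes floxed Dicer (Camk2a-Cre with Dicer flox/flox, called KO here) and from mice labelled control, whose genotype the labels do not give. All mice were 13 to 14 weeks old. Camk2a-Cre is active in excitatory neurons of the forebrain, so the other cells of the tissue keep Dicer, the enzyme that cuts microRNA (miRNA) precursors. The neocortex gave libraries from the control males D5129, D5134 and D5135 and the KO males D5130, D5132 and D5133. The CA1 gave libraries from the control males D5134 and D5135, the control female D5138 and the KO males D5130 and D5133. In all, 11 libraries came from 7 animals, and 4 animals gave both tissues, so the tissues are not independent sets of animals. The labels used here record no behaviour, handling or time of day before the tissue was taken.

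Immediate early genes are the first to be transcribed when a neuron fires or a cell meets a growth signal, because the factors that switch them on are already present in the cell. Calcium entry and the ERK kinase cascade activate CREB, SRF with its ELK partners, and MEF2, which bind the promoters and enhancers of these genes. The mRNAs are short-lived, so their level at one moment reflects recent activity. Most of the 10 encode transcription factors that drive a later wave of effector genes, and Arc encodes a protein that works at the synapse itself.

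A neocortex library held 43144097 to 58329441 gene counts, and a CA1 library 24806581 to 35684618. Levels are given as CPM, a gene's counts relative to the TMM-scaled total of its library, from edgeR. The 2 tissues were prepared with different kits and were therefore tested apart. Dicer1, counted as a whole gene, stood at 59.3 to 66.5 CPM in control and 59.0 to 63.3 CPM in KO neocortex, and at 68.7 to 75.2 and 71.6 to 73.3 CPM in the CA1. A count over the whole gene does not show a deletion of floxed exons, so it checks no label here. Summed markers of excitatory neurons reached 4849 to 5611 CPM in the neocortex and 4589 to 5769 CPM in the CA1. The CA1 libraries also carried markers of the dentate gyrus and CA3 at a sum of 250.6 to 299.5 CPM, against 51.67 to 64.83 CPM in the neocortex.

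The KO animal D5133 stood apart from all others for these genes, and it was singled out after its values were seen. Its library was the lowest of the 6 neocortex libraries for 8 of the 10 genes, while it was the lowest for 17.8% of all genes tested. In the CA1 it was the lowest of 5 libraries for 9 of the 10, against 22.9% of all genes tested. For 8 of the 10 genes it was lowest in both tissues, against 7.28% of the 16544 genes tested in both. Results for the 10 genes are therefore given with and without it. Calls for the marker lists and the pathway lists are given with it only.

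Promoter sequence is shown first, because 7 of the 8 genes with a RefSeq promoter entry carry the same short element, the core of the cAMP response element to which CREB binds. The windows ran from 250 bases before to 50 bases after the annotated start (RefSeq, build GRCm38.p6), and Arc and Egr1 are named only. The core TGACG, searched on both strands (CGTCA on the other), occurred in 7 of 8 genes and in 23.05% of the 27025 genes with a window. Capitals mark the core nearest to the start of each gene, and each line reads 5′ to 3′ on the strand of the gene.
Fos, chr12:85473812-85473841, plus strand: agttccgcccagTGACGtaggaagtccatc
Fosb, chr7:19310088-19310117, minus strand: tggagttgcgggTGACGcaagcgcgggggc
Junb, chr8:84978837-84978866, minus strand: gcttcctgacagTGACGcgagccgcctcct
Egr2, chr10:67537802-67537831, plus strand: tatgggcagcgaCGTCAcgggtattgaaga
Egr4, chr6:85513681-85513710, minus strand: tttggtcatttaCGTCAcggcgccagggcc
Nr4a1, chr15:101266794-101266823, plus strand: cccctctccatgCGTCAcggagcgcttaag
Npas4, chr19:4990123-4990152, minus strand: gacgtcacgggaTGACGtcggaagtctggg
Nr4a1 held 4 such cores, Egr2, Egr4, Fos and Npas4 held 2 each, and Fosb and Junb held 1 each. Fosl2 held none. The full palindrome TGACGTCA occurred in none of the 8 genes and in 2.03% of all genes with a window. The AP-1 site TGANTCA, the site of FOS and JUN dimers, was also found in none of the 8 and in 8.97% of all genes. A match is a stretch of letters and not a measured binding site.

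Other elements were shared by fewer of the genes. Among the 8 genes with a window, the CArG box, the site of SRF, was found in Egr2 only, in windows of separate annotated starts. It was found in 1.81% of all genes with a window. Sequence farther than 250 bases upstream was not searched, nor were Arc and Egr1, so SRF sites there would be missed. The EGR site GCGNGGGCG, searched on both strands, was found in Fosl2, Fosb and Nr4a1 and in 6.27% of all genes with a window. These sites are printed because EGR proteins are members of the group, and capitals mark the match.
Egr2, CArG box, chr10:67537787-67537816, plus strand: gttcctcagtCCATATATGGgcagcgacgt
Fosl2, EGR site, chr5:32136383-32136412, plus strand: ccggctgcgcGCGGGGGCGgaagggcgcgc
Fosb, EGR site, chr7:19310076-19310105, minus strand: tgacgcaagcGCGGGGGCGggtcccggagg
Nr4a1, EGR site, chr15:101266776-101266805, plus strand: gcgtcagtggCGCCCCCGCccctctccatg

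Arc and Egr1 were the most abundant of the 10 per length in both tissues. In control neocortex the mean level per kilobase of exon was 191 RPKM for Arc (186 to 196 across animals) and 129 RPKM for Egr1 (116 to 136), and these ranges did not overlap. Nr4a1 at 49.1 RPKM (47.6 to 52.0) lay above Junb at 37.4 RPKM (32.2 to 40.4), again without overlap. Egr4 followed at 16.7 RPKM (14.3 to 20.8). Fos at 10.7 RPKM, Npas4 at 10.2, Fosl2 at 8.15, Egr2 at 7.33 and Fosb at 5.61 came last, and neighbours in that order had overlapping ranges. In control CA1 the order began with Arc at 82.1 RPKM, Egr1 at 49.4, Nr4a1 at 31.7 and Junb at 26.5, with overlapping ranges between each neighbouring pair. It ended with Egr4 at 9.95 RPKM, Fosl2 at 9.11, Fos at 5.66, Npas4 at 5.05, Fosb at 2.71 and Egr2 at 2.09. Among these, Fosl2 lay above Fos without overlap, and the other neighbours overlapped. Levels were not compared between the tissues, since the kits differed.

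The AP-1 genes are given first. Fos (chr12:85473890-85477273, plus strand) encodes the founding FOS protein, which binds DNA as a dimer with a JUN protein. Neocortical Fos stood at 23.6 CPM in the control D5129, 25.8 CPM in D5134 and 26.1 CPM in D5135. Among KO animals it stood at 28.9 CPM in D5130, 38.7 CPM in D5132 and 7.54 CPM in D5133. The controls lay close together, and the KO animals lay on both sides of them. In the CA1, Fos stood at 14.6 CPM in the control D5134, 7.58 CPM in D5135 and 17.7 CPM in D5138. The KO values there were 7.92 CPM in D5130 and 3.90 CPM in D5133. D5133 was lowest, but D5130 lay above the control D5135, so the groups overlapped. The libraries keep this order in the next 3 paragraphs.

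Fosb (chr7:19302696-19310051, minus strand) encodes a FOS relative whose truncated form accumulates with repeated activity. Neocortical Fosb stood at 48.3, 38.1 and 18.6 CPM in controls and at 52.8, 35.5 and 40.3 CPM in KO animals. Here D5133 lay within the control range and the control D5135 was lowest. In the CA1, Fosb stood at 23.9, 10.9 and 15.9 CPM in controls and at 20.5 and 12.5 CPM in KO animals, both inside the control range. Fosl2 (chr5:32135801-32157842, plus strand) encodes FRA2, another dimer partner of JUN proteins. Neocortical Fosl2 stood at 120, 67.9 and 48.6 CPM in controls and at 86.9, 58.8 and 59.2 CPM in KO animals, all of them between the highest and lowest control. In the CA1, Fosl2 stood at 101, 77.6 and 86.2 CPM in controls and at 82.4 and 71.5 CPM in KO animals, with D5133 lowest by a small margin. Junb (chr8:84974484-84978718, minus strand) encodes a JUN protein. Neocortical Junb stood at 74.0, 92.9 and 91.4 CPM in controls and at 88.0, 105 and 34.4 CPM in KO animals. Only D5133 lay below the controls, and D5132 lay above them. In the CA1, Junb stood at 65.1, 44.5 and 73.0 CPM in controls and at 46.4 and 29.6 CPM in KO animals, with D5130 just above the lowest control.

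The EGR genes, which encode zinc finger transcription factors, come next. Egr1 (on chromosome 18) encodes an EGR factor widely used as a marker of neuronal activity. Neocortical Egr1 stood at 611, 518 and 609 CPM in controls and at 558, 575 and 283 CPM in KO animals. D5130 and D5132 lay inside the control range and D5133 below it. In the CA1, Egr1 stood at 218, 164 and 282 CPM in controls and at 138 and 76.8 CPM in KO animals, so both KO animals lay below every control. Egr2 (chr10:67535475-67542188, plus strand) encodes an EGR factor also known from the control of myelination in peripheral nerve. Neocortical Egr2 stood at 25.6, 24.1 and 25.0 CPM in controls and at 32.7, 34.3 and 7.82 CPM in KO animals. The controls hardly differed, D5130 and D5132 lay above all of them and D5133 lay far below. In the CA1, Egr2 stood at 8.10, 3.19 and 10.0 CPM in controls and at 5.15 and 2.03 CPM in KO animals, and the groups overlapped. Egr4 (chr6:85511121-85513589, minus strand) encodes a further EGR factor. Neocortical Egr4 stood at 44.6, 30.8 and 32.4 CPM in controls and at 34.8, 35.6 and 22.7 CPM in KO animals, with only D5133 below the controls. In the CA1, Egr4 stood at 21.3, 18.1 and 24.8 CPM in controls and at 19.3 and 7.29 CPM in KO animals. D5130 lay inside the control range and D5133 far below it.

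Nr4a1 (chr15:101254269-101274795, plus strand) encodes the orphan nuclear receptor NUR77. Neocortical Nr4a1 stood at 167, 182 and 167 CPM in controls and at 202, 217 and 65.7 CPM in KO animals. D5130 and D5132 lay above all controls and D5133 below all of them. In the CA1, Nr4a1 stood at 113, 78.2 and 143 CPM in controls and at 79.0 and 33.3 CPM in KO animals, with D5130 at the level of the lowest control. Npas4 (chr19:4984355-4990316, minus strand) encodes a factor of neurons that responds to calcium entry and shapes inhibitory synapses. Neocortical Npas4 stood at 30.5, 48.5 and 48.0 CPM in controls and at 37.2, 46.3 and 23.2 CPM in KO animals, and 2 of the 3 KO animals lay inside the control range. In the CA1, Npas4 stood at 26.2, 14.8 and 21.7 CPM in controls and at 10.3 and 8.81 CPM in KO animals. The 2 KO animals lay close together and below every control.

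Arc (chr15:74669083-74672570, minus strand) encodes a capsid-forming synaptic protein that promotes removal of AMPA receptors. Neocortical Arc stood at 599, 567 and 584 CPM in controls and at 603, 750 and 86.0 CPM in KO animals. D5130 and D5132 lay above the controls, while D5133 held 14.7% of the control mean. In the CA1, Arc stood at 256, 189 and 308 CPM in controls and at 154 and 52.3 CPM in KO animals. Both KO animals lay below every control, and D5133 held 20.8% of the control mean. Across the 10 genes, D5133 held 14.7% (Arc) to 115% (Fosb) of the control mean in the neocortex and 20.8% (Arc) to 81.1% (Fosl2) in the CA1.

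**Figure D1:**
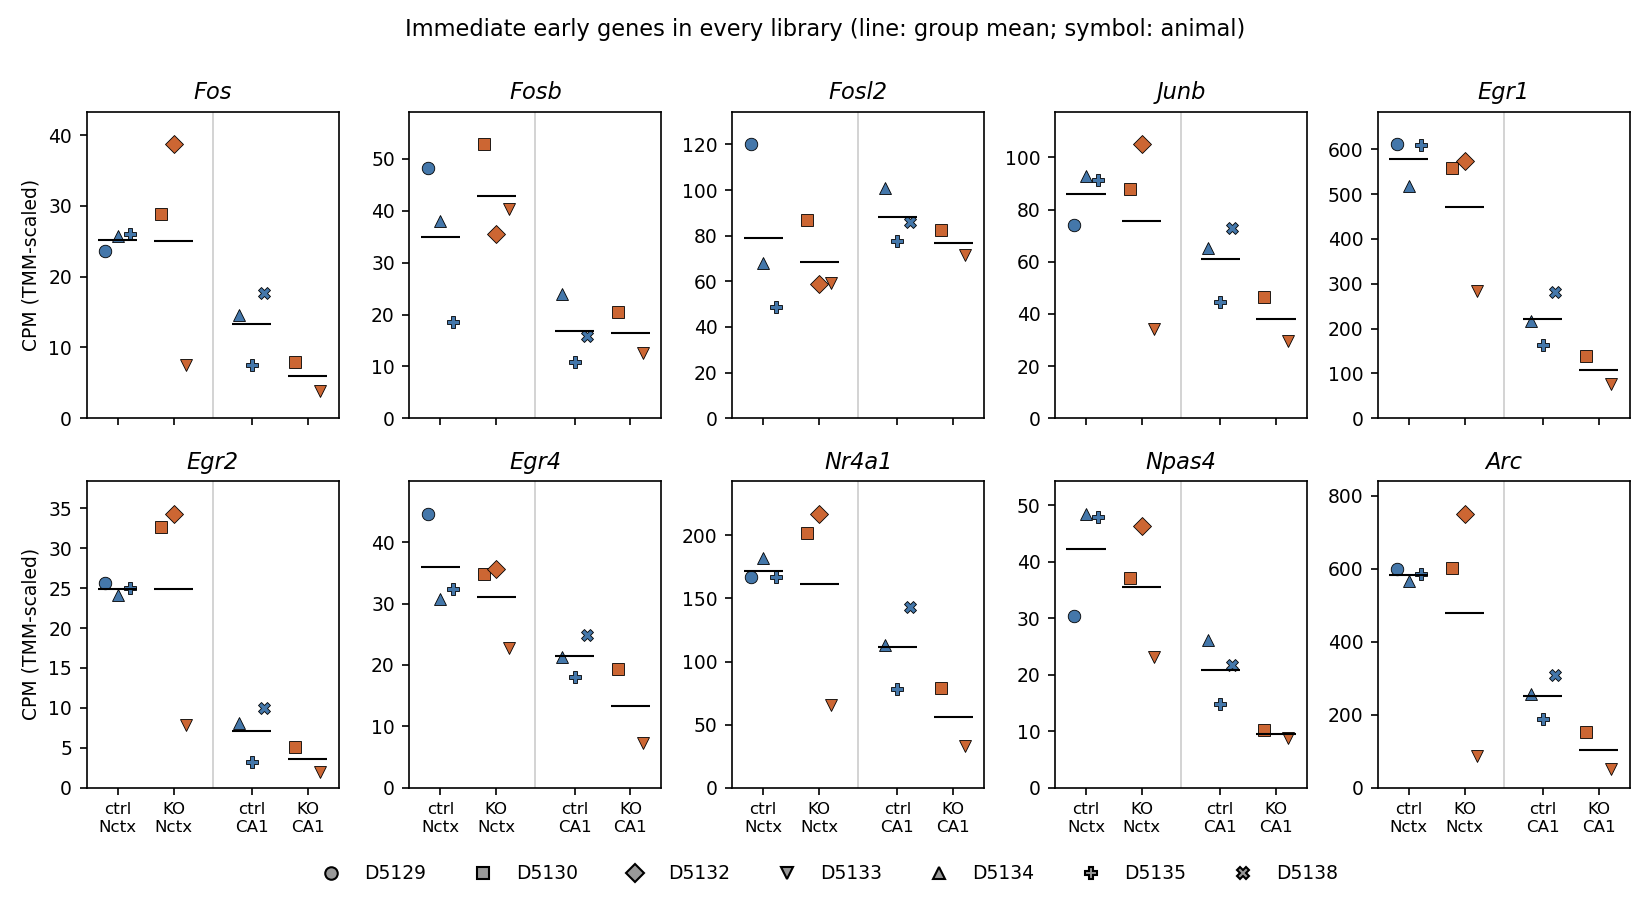
Level of each gene in CPM (vertical axis, scaled by TMM) in control (blue) and KO (orange) libraries of the neocortex (Nctx) and the CA1, with 1 symbol per animal and a line at each group mean. The downward triangle, D5133, is the lowest point of its tissue for 8 of the 10 genes in the neocortex and 9 of the 10 in the CA1.

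In the neocortex none of the 10 genes passed the test of KO against control. By the quasi-likelihood test of edgeR, at a Benjamini-Hochberg adjusted p under 0.05, 0 of 10 passed, where 2.71% of the 16971 genes tested passed. At an unadjusted p under 0.05, 0 of 10 passed as well, against 18.0% of all genes tested. The log2 fold changes ran from -0.30 for Egr1 to 0.29 for Fosb, 9 of 10 were below 0 (as were 49.4% of all genes tested), and their median was -0.20 against 0 over all genes. The 95% interval was widest for Arc, from -2.54 to 1.98 on the log2 scale (estimate -0.28, SE 0.83, edgeR adjusted p = 0.915). It was narrowest for Egr4, from -0.80 to 0.37 (estimate -0.21, SE 0.23, edgeR adjusted p = 0.716). Fos and Egr2 had estimates of -0.01 and 0.00 with SEs of 0.63 and 0.60, so sizeable changes of either sign lie within their intervals. No gene of the 10 had KO and control libraries that did not overlap, against 24.0% of all genes tested.

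Leaving out D5133 turned the direction of 5 of these neocortical estimates, those of Fos, Junb, Egr2, Arc and Nr4a1. Both remaining KO animals then lay above all 3 controls for Fos, Egr2, Arc and Nr4a1, an arrangement seen for 14.7% of all genes tested. Without D5133, Egr2 stood at 0.43 on the log2 scale (SE 0.078, edgeR adjusted p = 0.0663), Fos at 0.43 (SE 0.12, edgeR adjusted p = 0.198), Nr4a1 at 0.28 (SE 0.065, edgeR adjusted p = 0.119) and Arc at 0.21 (SE 0.084, edgeR adjusted p = 0.370). None of the 10 passed at the adjusted threshold, where 0.111% of all genes did, and these 4 had an unadjusted p under 0.05, as did 11.2% of all genes in that fit. Over the 12 alternative fits, the adjusted p ranged from 0.0663 to 1 for Egr2, from 0.198 to 1 for Fos, from 0.119 to 0.98 for Nr4a1 and from 0.370 to 0.944 for Arc. The median log2 fold change of the 10 genes was 0.19 without D5133.

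The neocortex libraries were divided by their sign on the main axis of variation in the composition of the ERCC spike-in RNAs. This gave 2 sets, D5129, D5130 and D5132 against D5133, D5134 and D5135, each with both genotypes. Such a division yields 2 sets from any libraries, and whether these are distinct batches was not tested. Within the first set the median difference of KO from control over the 10 genes was 0.24 on the log2 scale, and within the second, whose single KO library is D5133, it was -1.23. Arc differed by 0.17 in the first set and by -2.74 in the second. Fosb went the other way, with -0.16 and 0.60. Egr4 differed by -0.34 and -0.48, and with the set as a term it passed at -0.41 (SE 0.076, edgeR adjusted p = 0.0342), where 1.13% of all genes passed. Its adjusted p over the 12 alternative fits ranged from 0.0342 to 0.970.

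In the CA1, Npas4 fell in the KO and the other 9 genes did not pass the test. Its log2 fold change was -1.12 (SE 0.24, 95% interval -1.67 to -0.57, edgeR adjusted p = 0.0484), from a mean of 20.9 ± 5.72 CPM (SD, n = 3) to 9.53 ± 1.03 CPM (SD, n = 2). In all, 1 of 10 passed, where 3.89% of the 18274 genes tested passed and 1.41% passed with lower values in the KO. The same gene is the 1 of 10 with an unadjusted p under 0.05, against 17.3% of all genes. All 10 estimates were below 0, as were 50.1% of all genes tested, with a median of -0.96 against 0. Sex was not balanced, since the only female, D5138, is a control. D5138 was the highest CA1 library for Fos, Junb, Egr1, Egr2, Egr4, Arc and Nr4a1, and the male control D5134 for Fosb, Fosl2 and Npas4. Without D5138 all 10 estimates stayed below 0, with a median of -0.68. An effect of sex was not tested. KO lay below every control for Egr1, Arc and Npas4, an arrangement found in 16.3% of all genes tested, and in 33.7% when either direction is counted.

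The other CA1 estimates were large but uncertain. Arc stood at -1.28 (SE 0.63, 95% interval -3.22 to 0.67, edgeR adjusted p = 0.455), Fos at -1.15 (SE 0.56, interval -2.76 to 0.46, adjusted p = 0.430) and Egr1 at -1.04 (SE 0.43, interval -2.36 to 0.29, adjusted p = 0.382). Nr4a1 stood at -0.98 (SE 0.56), Egr2 at -0.95 (SE 0.74), Junb at -0.67 (SE 0.35) and Egr4 at -0.66 (SE 0.50), with edgeR adjusted p-values of 0.465 to 0.634. Fosb stood at -0.02 (SE 0.46) and Fosl2 at -0.19 (SE 0.10). Most of these values moved by over 1.5 times when a KO library was left out. Arc stood at -0.71 without D5133 and at -2.26 without D5130. The same pair of values was -0.76 and -1.77 for Fos, -0.68 and -1.53 for Egr1, -0.50 and -1.74 for Nr4a1, and -0.47 and -1.80 for Egr2. It was -0.40 and -1.04 for Junb, -0.15 and -1.55 for Egr4, 0.28 and -0.42 for Fosb, and -0.10 and -0.30 for Fosl2.

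The Npas4 call was not kept by every fit. It passed in 4 of 9 alternatives. Its lowest adjusted p, 2.74e-15, came from the edgeR fit without a filter on low counts. In that fit 1467 of all genes passed, and the log2 fold change of Npas4 was -1.13. DESeq2 gave an adjusted p of 6.72e-07, and the edgeR fit of the 11 libraries gave 0.217. The log2 fold change of Npas4 stayed between -1.32 and -0.93 over the 9 alternatives. It was -1.03 (SE 0.35, edgeR adjusted p = 0.295) without D5133 and -1.24 (SE 0.36, edgeR adjusted p = 0.218) without D5130, fits in which the remaining KO library is assumed to vary like the controls. Without the control D5138 its adjusted p was 0.144, also by edgeR. Without D5133 the KO library D5130 alone still lay below all 3 controls for Egr1, Arc and Npas4, as it did for 29.3% of all genes tested. The median of the 10 estimates was then -0.49. Without D5130, Egr4 passed at -1.55 (SE 0.19, edgeR adjusted p = 0.00313), where 2.11% of all genes passed, and its adjusted p over the 9 alternatives ranged from 0.00313 to 0.816.

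**Figure D2:**
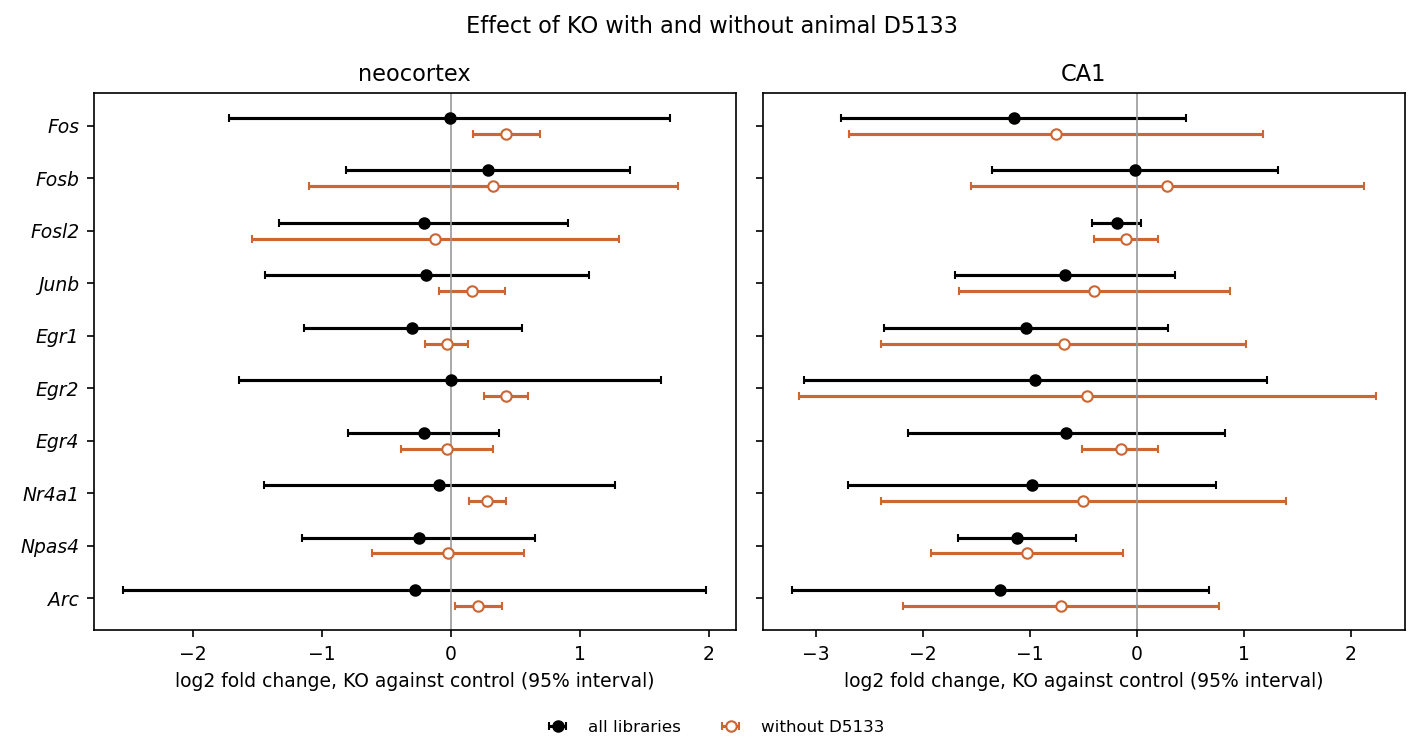
Log2 fold change of KO against control (horizontal axis) with its 95% interval for each gene in the neocortex (left) and the CA1 (right), from edgeR with all libraries (black) and without D5133 (orange, open). Without D5133 the neocortical estimates of Fos, Egr2, Nr4a1 and Arc lie at 0.43, 0.43, 0.28 and 0.21, and Npas4 in the CA1 lies at -1.03.

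Cell type markers differed between the groups as well. At the adjusted threshold used for the calls below, 2.71% of all genes tested passed in the neocortex and 3.89% in the CA1. Summed excitatory neuron markers were 5539 to 5611 CPM in control and 4849 to 4948 CPM in KO neocortex, where 1 of 7 markers (Nrgn) passed, and 5103 to 5769 against 4589 to 5034 CPM in the CA1, where 1 of 7 (Neurod6) passed. In the KO CA1 all 6 oligodendrocyte markers fell, to a sum of 2805 to 2820 CPM from 3389 to 4115. Meningeal fibroblast markers summed to 189.7 to 220.3 CPM there against 85.65 to 91.68 CPM in controls, and 2 of 6 rose. Astrocyte markers summed to 2609 to 2806 CPM against 2095 to 2186 CPM, and 2 of 6 rose. Microglial markers summed to 312 to 366.1 CPM against 272.1 to 290.3 CPM, and 3 of 6 rose. Striatal markers summed to 150.4 to 159.3 CPM in KO neocortex against 190.7 to 235.1 CPM in controls, and 3 of 7 fell. Interneuron markers summed to 1293 to 1340 CPM in KO and 1231 to 1274 CPM in control neocortex, where 0 of 7 passed. They summed to 849.6 to 867.4 CPM in the KO CA1, within the control range of 820.5 to 888.2 CPM, and 0 of 7 passed. In the neocortex 1 of 6 microglial markers rose, and 2 of the 6 dentate and CA3 markers tested fell. Of astrocyte, oligodendrocyte, meningeal and endothelial markers, 0 of 6 each passed there. In the CA1, 1 of 6 endothelial markers rose, 1 of 7 striatal markers fell and 0 of 7 dentate and CA3 markers passed. No marker of these types was at 0. The part of these shifts in the levels of the immediate early genes was not tested, and in bulk tissue fewer cells of a type and less RNA per cell cannot be told apart.

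The KO effect in the CA1 minus that in the neocortex was tested for each gene in 1 fit of the 11 libraries. This fit had no term for the animal, so the neocortex and CA1 libraries of the same animal counted as independent. By edgeR 0 of 10 passed, where 0.0935% of the 19256 genes tested passed, and 0 of 10 had an unadjusted p under 0.05, against 9.51% of all genes. Estimates ran from -1.13 for Fos (SE 0.94, 95% interval -3.35 to 1.09) to 0.02 for Fosl2 (SE 0.51, interval -1.17 to 1.21). For Npas4 the difference was -0.87 (SE 0.51, interval -2.06 to 0.32, edgeR adjusted p = 0.655), so its fall in the CA1 was not shown to differ from its neocortical value. With the animal as a block, which rests on the 4 animals that gave both tissues, Fosb passed at -0.80 (SE 0.14, edgeR adjusted p = 0.0133) and Fosl2 at -0.53 (SE 0.11, edgeR adjusted p = 0.0435), in a fit where 0.592% of all genes passed. Those are the 2 genes of the 10 whose lowest neocortical library was not D5133. In that fit Fos moved from -1.13 to -0.25, Arc from -0.99 to 0.00 and Npas4 from -0.87 to -0.37, and the median of the 10 from -0.81 to -0.33. Over the 16 alternative fits the adjusted p ranged from 0.0133 to 1 for Fosb and from 0.0435 to 1 for Fosl2. Without both D5133 libraries 0 of 10 passed by edgeR, in a fit where 0 of all 19769 genes passed. At an unadjusted p under 0.05, 1 of 10 (Arc) passed in that fit, against 8.55% of all genes.

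Between animals of 1 group, these genes varied more than most. The median within-group SD of log2 CPM was 0.585 over the 10 genes and 0.119 over all genes tested in the neocortex, and 0.571 and 0.125 in the CA1. In the neocortex the median SD was 0.720 in the KO group and 0.159 among controls, against 0.0961 and 0.119 over all genes. Without D5133 the median over the 10 genes was 0.200 in the KO group, against 0.0828 over all genes, and the pooled median was 0.182 against 0.121. The pooled SD of Arc was then 0.132 and that of Fos 0.183, while those of Fosb and Fosl2 were 0.630 and 0.586. The controls of Arc and Egr2 had an SD of 0.04 each, at percentiles 10.4 and 12.2 of all genes, while the pooled SD of Arc was 1.22, at percentile 99.9. Fosb and Fosl2 were the reverse, with control SDs of 0.72 and 0.66 and KO SDs of 0.29 and 0.32. In the CA1 the control median was 0.403 against 0.114 for all genes, so the spread there was not limited to the KO animals. The CA1 controls included the female D5138, while the neocortex controls were all male. The part of sex in this spread was not tested. With D5130 as the only KO library, the CA1 spread is that of the controls. Fosl2 was the least variable of the 10 in the CA1, at an SD of 0.18 (percentile 64.2), and Egr2 the most, at 0.89 (percentile 98.5).

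**Figure D3:**
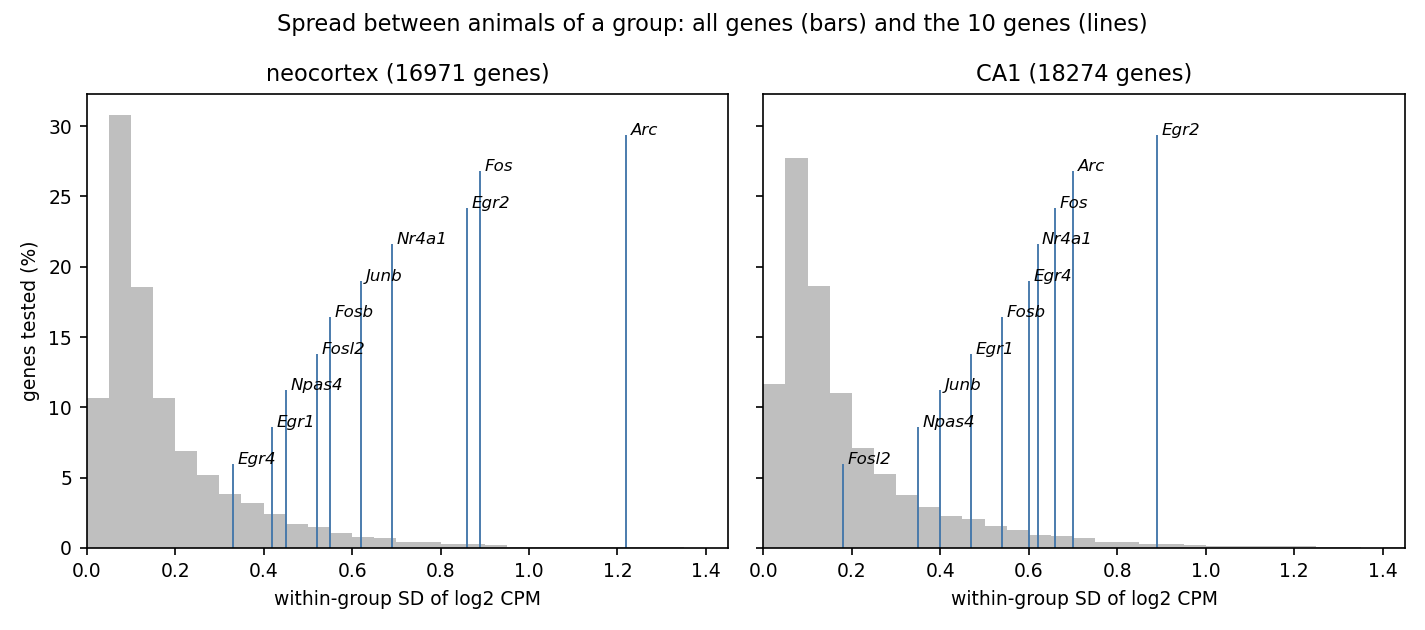
Within-group SD of log2 CPM (horizontal axis) as the percentage of all genes tested (grey bars, vertical axis) in the neocortex and the CA1, with a vertical line for each of the 10 genes at its SD, whose height carries no value; all libraries are included. Arc lies farthest right in the neocortex at 1.22 and Egr2 in the CA1 at 0.89, against medians over all genes of 0.119 and 0.125.

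Over all libraries, 8 of the 10 genes had high correlations with one another, and Fosb and Fosl2 had low ones with those 8. Over the 11 libraries, with log2 CPM centred on the mean of each tissue, Pearson r was 0.99 between Fos and Junb and 0.98 between Fos and Nr4a1. Among the 8 genes other than Fosb and Fosl2 the lowest r was 0.62, between Egr4 and Npas4. Fosb and Fosl2 had an r of 0.74 with each other. Fosb had r of -0.01 to 0.33 and Fosl2 r of 0.04 to 0.49 with the other 8. Without the 2 libraries of D5133, and with tissue means taken again, r was 0.95 for Fos and Junb, 0.97 for Fos and Nr4a1 and 0.78 for Fosb and Fosl2. Egr4 then had r of 0.02 (Npas4) to 0.67 (Egr1) with the other 7 of the 8, at a median of 0.5, and 0.66 with Fosl2. The median r of Egr4 with those 7 was 0.82 over the 11 libraries. Among the 7 without Egr4, r was 0.78 to 0.99 with D5133 and 0.53 to 0.97 without it. Fosb had r of -0.15 to 0.44 and Fosl2 r of -0.27 to 0.66 with the 8 in the libraries without D5133. The points share animals between tissues and sequencing depth within a library, and these values describe the libraries.

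**Figure D4:**
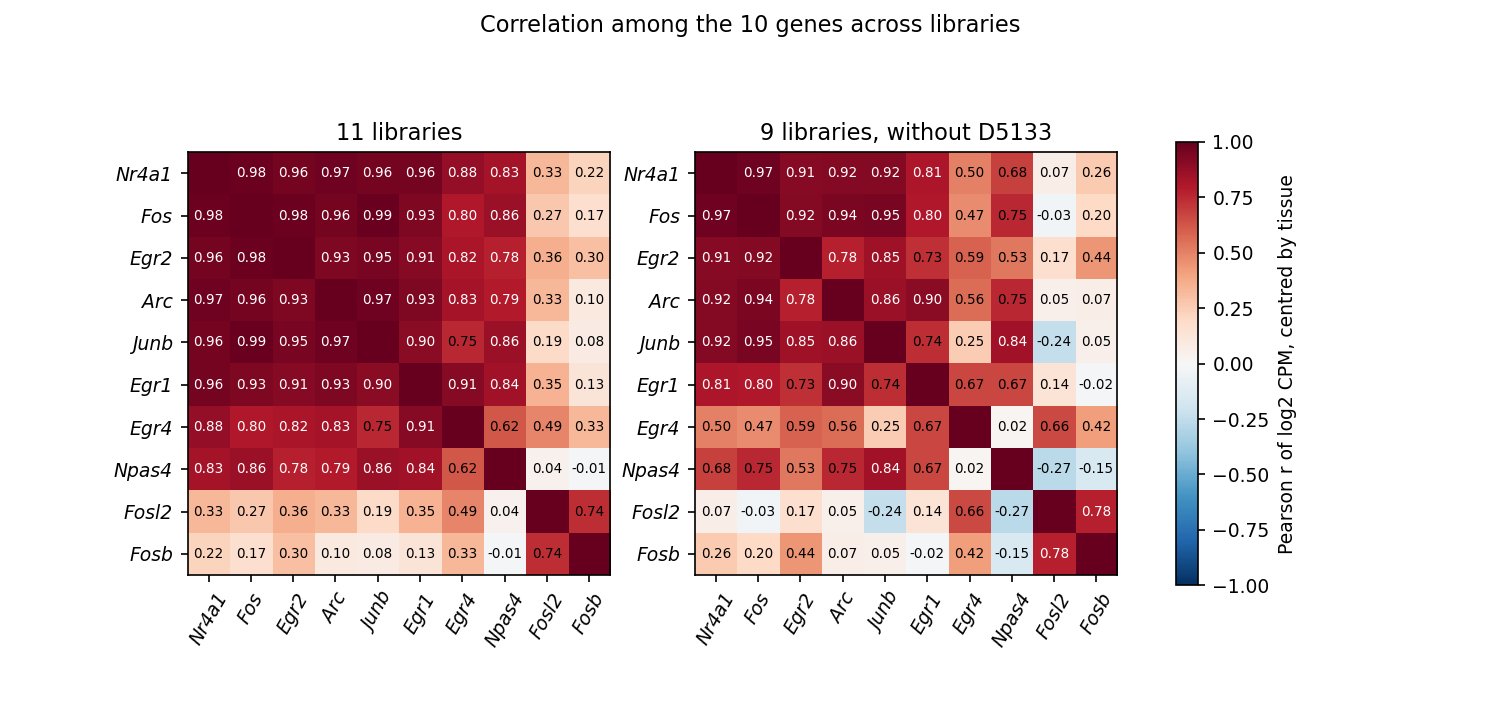
Pearson r of log2 CPM centred by tissue (colour and number) between each pair of the 10 genes over 11 libraries (left) and over the 9 libraries without D5133 (right). Fosl2 and Fosb, in the last rows, have r of 0.74 and 0.78 with each other, and Egr4 with Npas4 has 0.62 on the left and 0.02 on the right.

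The mean of the 10 genes was used to find the genes most like them. Among 13082 genes ranked by Pearson r with that mean over the 11 libraries, the 8 nearest outside the group were Dusp1 (r of 0.923), Sox8 (0.916), Pigz (0.916), Trib1 (0.910), Tpt1-ps3 (0.898), Dusp5 (0.894), Arhgef18 (0.893) and Tiparp (0.886). Dusp1 and Dusp5 encode phosphatases that switch off MAP kinases. Without D5133 the r was 0.783 for Dusp1, 0.518 for Sox8, 0.890 for Pigz, 0.948 for Trib1, 0.698 for Tpt1-ps3, 0.514 for Dusp5, 0.884 for Arhgef18 and 0.672 for Tiparp. Within the group, r with the mean of all 10 was 0.988 for Nr4a1 and 0.977 for Fos but 0.430 for Fosl2 and 0.303 for Fosb, each gene being part of that mean.

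Related genes of the pathway were read from 4 lists. Of the relatives and partners of these proteins, such as Jun, Egr3 and Nr4a2, 0 of 12 passed in the neocortex and 0 of 13 in the CA1 by edgeR. D5133 was the lowest library for 1 of those 12 in the neocortex and for 6 of the 13 in the CA1, against 17.8% and 22.9% of all genes tested. Of other rapidly induced genes, such as Ier2, Btg2 and Dusp1, 0 of 24 passed in either tissue. D5133 was the lowest neocortex library for 15 of these 24 and the lowest CA1 library for 9 of 24. Their summed level in the neocortex was 748.9 to 881.4 CPM in controls and 569.1 to 890.1 CPM in KO animals. At an unadjusted p under 0.05, 3 of 12 relatives and 4 of 24 rapidly induced genes passed in the neocortex, against 18.0% of all genes, and 5 of 13 and 4 of 24 in the CA1, against 17.3%. The medians of both lists lay between -0.04 and 0.01 in either tissue, against 0 over all genes.

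Later effector genes and upstream signalling genes gave a few calls, where 2.71% of all genes tested passed in the neocortex and 3.89% in the CA1. Of effector genes, such as Bdnf and Homer1, 0 of 22 passed in the neocortex and 2 of 22 fell in the CA1. These were Dusp6, a phosphatase of ERK, at -0.82 (SE 0.098, edgeR adjusted p = 0.000731), and Plk2, a kinase of active synapses, at -0.33 (SE 0.063, edgeR adjusted p = 0.0101). Of the calcium, kinase and transcription factor genes upstream, 2 of 24 fell in the neocortex. They were the ERK kinase gene Map2k1 at -0.30 (SE 0.050, edgeR adjusted p = 0.0109) and the calcineurin subunit gene Ppp3cb at -0.20 (SE 0.048, edgeR adjusted p = 0.0455). In the CA1 1 of 24 rose, Mapk3, which encodes ERK1, at 0.30 (SE 0.065, edgeR adjusted p = 0.0189), and 3 fell. The 3 were Mef2c at -0.39, Ppp3ca at -0.26 and Ppp3cb at -0.22, with edgeR adjusted p-values of 0.0201, 0.0220 and 0.0340. The genes for CREB1 and SRF were not among the calls in either tissue. By edgeR at an unadjusted p under 0.05, 0 of 22 effector genes passed in the neocortex and 8 of 22 in the CA1, all lower. Of the 24 upstream genes, 5 passed higher and 5 lower in the neocortex, and 4 higher and 5 lower in the CA1. The share of all genes was 18.0% in the neocortex and 17.3% in the CA1. Effector estimates below 0 numbered 6 of 22 in the neocortex (median 0.09) and 18 of 22 in the CA1 (median -0.21). Of all genes, 49.4% and 50.1% lay below 0. All these calls include D5133, and whether they hold without it is not reported. D5133 was the lowest library for 4 of 22 effector genes in the neocortex and 8 of 22 in the CA1. For upstream genes it was lowest for 2 of 24 and 5 of 24, against 17.8% and 22.9% of all genes tested.

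Since the KO removes an enzyme of miRNA production, the 3′ UTRs of the 10 genes were searched for matches to the seeds (bases 2 to 8) of 13 brain miRNA families, and miR-124 was not searched here. The longest annotated 3′ UTR of each gene in GENCODE M21 was used. Fos, with a 3′ UTR of 815 bases, matched 6 of the 13 families, Fosl2, with 4653 bases, matched 4, and Egr1 and Egr4 matched none of the 13. The number of families matched per gene was not counted over all genes, so these counts have no baseline here. The miR-101 seed matched Fos, Fosl2 and Junb, 3 of 10 genes, against 11.33% of tested genes with a 3′ UTR. The miR-138 seed matched Arc, Fosb and Nr4a1, 3 of 10 against 14.46%, and the miR-34 seed matched Fos, Fosb and Egr2, 3 of 10 against 17.14%. The miR-29 seed matched 2 of 10 genes against 15.43%, and 7 families matched 1 gene each. The let-7 and miR-9 seeds matched 0 of 10, against 10.51% and 14.11%. Matches of 8 bases, the seed match followed by an A, were found in Fos, Fosl2 and Arc only and are printed in capitals on the strand of the gene (GRCm38), after the mature miRNAs from RefSeq with their seeds in capitals.
miR-101a-3p: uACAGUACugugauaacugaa
Fos, chr12:85476982-85477011, plus strand: gctatatccatGTACTGTAgtccttcagcg
Fosl2, chr5:32157631-32157660, plus strand: tgttgttctgtGTACTGTAtgtgacacaag
miR-30a-5p: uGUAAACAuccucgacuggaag
Fosl2, chr5:32156884-32156913, plus strand: tttattttaaaTGTTTACAtttctttgtgt
miR-138-5p: aGCUGGUGuugugaaucaggccg
Arc, chr15:74669919-74669948, minus strand: catcaccacacCACCAGCAccagcaccatc
miR-221-3p: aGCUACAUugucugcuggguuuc
Fos, chr12:85476650-85476679, plus strand: ctcttccagagATGTAGCAaaaacaaaaca
Arc held a second miR-138 match of 8 bases that overlaps the same repeated stretch. The KO estimates of Fos, Fosl2 and Arc were -0.01, -0.21 and -0.28 in the neocortex and -1.15, -0.19 and -1.28 in the CA1, and none of the 3 passed the test in either tissue.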

How the data were processed

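The deposited values are counts, whole reads per gene without normalization, from the authors' table of the 11 libraries, and 0 columns belonged to unlisted samples. GSNAP, SAMtools, bedtools and FastQC are listed, with the build GRCm38, per the submitters' processing notes. Their versions, the counting rule and the strand setting are not given in the sources used here. Neocortex libraries were stranded and CA1 libraries unstranded, per the labels' protocols, so CA1 reads of overlapping genes cannot be told apart.

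Symbols came from GENCODE M21 for 37693 of 39017 genes (96.6%). Tests used edgeR 4.0.16 in R 4.3.3 within each tissue (TMM, filterByExpr, robust quasi-likelihood, two-sided, Benjamini-Hochberg over all genes tested). The script was tested on simulated data in which every gene had the same spread between animals. That run does not show how well changes are found in genes as variable as those studied here. RPKM used exon length. Log2 CPM had a prior count of 2. Lone libraries in leave-one-out fits borrowed their spread from the other group.

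The labels name the same animal for both tissues of 4 animals. Deviations from group means over 16544 genes correlated by 0.111 to 0.143 within these animals and by -0.168 to 0.034 between animals. Such deviations cancel within a small group, so the values between animals are no independent baseline. Neocortical D5130 correlated by 0.111 with its own CA1 library and by -0.111 with that of D5133, the other KO library there. Alternatives were DESeq2 1.42.0, RLE scaling, no filter, 1 fit of 11 libraries, ERCC scaling, each library left out, the animal as a block and, chosen after seeing the data, the ERCC composition set and the removal of both D5133 libraries. All 10 genes are named. Of each other list at most 4 genes with the smallest p in a tissue, and the 8 genes most alike, are described, and the examples that introduce a list were picked for familiarity. The genes and lists were chosen with earlier results of these data known.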

Additional observations from a re-analysis of the deposited data

How the results depend on the processing

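For the count of the 10 genes past the threshold, the neocortical 0 became 1 (Egr4) with the ERCC composition set as a term. The CA1 count of 1 became 0 with RLE scaling, where Npas4 had an edgeR adjusted p of 0.0502, and 0 with 1 fit of 11 libraries, and it ranged from 0 to 1 when single libraries were left out. The interaction count of 0 became 2 with the animal as a replicate block, where Junb turned to 0.17 and Fosl2 to -0.53. Fosl2 was also turned without a filter on low counts, to -0.01 in the interaction, and Egr2 in the neocortex crossed 0 with DESeq2, at 0.00. Leave-one-out estimates that changed sign ranged in the neocortex from -0.47 to 0.43 for Fos, -0.01 to 0.60 for Fosb, -0.46 to 0.23 for Fosl2, -0.49 to 0.16 for Junb, -0.30 to 0.43 for Egr2, -0.76 to 0.21 for Arc and -0.36 to 0.28 for Nr4a1. In the CA1 Fosb ranged from -0.42 to 0.31. In the interaction Fosb ranged from -0.75 to 0.02, Fosl2 from -0.44 to 0.25 and Egr4 from -1.37 to 0.05. The cause was not tested. Over all genes, 460 passed in the neocortex, but 922 with DESeq2, 770 without a filter, 191 with the ERCC set, 4 with ERCC scaling, 19 without D5133, 144 without D5132, 207 without D5129 and 209 without D5130. In the CA1 710 passed, but 1467 without a filter, 393, 244 and 232 without D5130, D5138 or D5133 in turn. In the interaction 18 passed, but 159 with DESeq2, 237 without a filter, 114 with the block and 1 to 31 with a library left out. ERCC scaling moved the median of all genes to 1.06, and the neocortical values of the 10 genes under it are relative to that shift. The planned split by ERCC share was not run, since the shares formed no 2 sets. Depth was not compared between genes as a limit. With 2 or 3 animals a group, the intervals are wide.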
